A study of Mus musculus with 44 samples.

Results

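Mouse cultures taken 144 h after the start of B-cell differentiation were compared with cultures taken at 96 h, the last step of a time course that had 3 libraries at both ends. The libraries were chosen by their labelled time point and nothing else, and these 6 are 6 of 44 in the series. All 44 held RNA of iLS (induced leukocyte stem) cells, which are multipotent progenitors of blood made from C57BL/6J fetal liver by a fusion named Id3-ERT2, which acts only while 4-hydroxytamoxifen (4-OHT) is given. The cells had grown on TSt-4, a mouse stromal feeder line, with IL-7 at 20 ng/mL, SCF at 10 ng/mL, Flt-3L at 10 ng/mL and 4-OHT at 40 nM. At 0 h the 4-OHT was taken away and IL-7 was lowered to 5 ng/mL, still on the feeder. SCF and Flt-3L are not named for that medium. Both groups share the fusion, the feeder and this treatment, and they differ only in time. Poly(A) RNA was sequenced, no label says that feeder cells were taken out first, and single libraries at 120 h and 168 h stand beside the comparison as values. The labels do not say that the replicates were separate cultures, so p-values measure only the spread between libraries. In the main fit that spread came from the 42 libraries of all 14 replicated time points.

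A B-cell precursor that has joined a heavy-chain gene shows the chain on its surface with the surrogate light chain, made by Igll1, Vpreb1 and Vpreb2, and with the signalling subunits Cd79a and Cd79b. This pre-B receptor and the IL-7 receptor together drive the precursors to divide. E proteins such as the product of Tcf3 act with Ebf1, Foxo1 and Pax5 to switch these genes on, and Id proteins block E proteins by pairing with them.

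Promoter sequence is shown for 3 genes that encode parts of the pre-B receptor, whose values are described below. Each run covers the 250 bases before the gene's start in RefSeq's table for GRCm38.p6, read 5′ to 3′ on the gene's strand. Capitals mark CAGGTG, a motif bound by E proteins, or its reverse complement CACCTG.
Igll1: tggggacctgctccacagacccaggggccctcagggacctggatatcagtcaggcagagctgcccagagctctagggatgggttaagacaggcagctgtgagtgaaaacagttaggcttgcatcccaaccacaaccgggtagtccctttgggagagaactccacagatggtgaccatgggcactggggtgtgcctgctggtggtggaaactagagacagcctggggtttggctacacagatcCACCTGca
Vpreb1: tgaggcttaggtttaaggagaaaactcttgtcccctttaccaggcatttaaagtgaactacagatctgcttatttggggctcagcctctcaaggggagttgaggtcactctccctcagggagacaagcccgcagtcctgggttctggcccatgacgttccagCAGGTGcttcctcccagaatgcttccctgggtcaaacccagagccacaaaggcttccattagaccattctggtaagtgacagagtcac
Cd79a: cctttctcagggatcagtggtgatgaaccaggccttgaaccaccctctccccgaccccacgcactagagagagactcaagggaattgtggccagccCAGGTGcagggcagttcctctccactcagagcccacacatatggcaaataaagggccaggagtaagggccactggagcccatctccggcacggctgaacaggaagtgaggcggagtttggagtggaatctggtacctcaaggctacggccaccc
The windows lie at chr16:16863986-16864235, minus strand, at chr16:16869256-16869505, minus strand, and at chr7:24897247-24897496, plus strand. The motif, searched on both strands, stood in 12 of 15 promoters (80.0%) of the 13 genes found in the table from a list of pre-B and B-cell receptor genes. Those with the motif are not all separate, as they include both promoters of Syk and those of the close copies Vpreb1 and Vpreb2. The promoters of Vpreb3 and Btk and a second promoter of Ralgps2 did not hold it. The motif stood in 2 of 26 promoters (7.69%) of 17 B-lineage transcription factor genes, and in 5657 of all 32851 promoters (17.2%). One strict pattern for EBF proteins, which reads the same on both strands, was in 0 of the 15 receptor promoters. It was in 1 of the 26 factor promoters (Foxo1) and in 256 of all promoters (0.779%). EBF sites that differ from this pattern at a fixed letter were not searched for. The 0 therefore does not show that the receptor promoters, Cd79a among them, lack EBF sites. The counts for both motifs are matches of letters in a fixed window, described without a test.

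The FPKM values (fragments scaled to the transcript's length and to the mapped fragments of the library) of the 6 libraries summed to between 579124 and 701705, and 11826 to 12308 genes reached 1 FPKM. The file holds no counts, so the sequencing depth is unknown. Of the 6 libraries, replicate 3 at 96 h stood furthest apart before any gene was compared. Its 27 stromal feeder genes summed to 6020 FPKM, against 2938 and 3188 in replicates 1 and 2 at 96 h and 2896, 2099 and 3743 at 144 h. Its sum over 20 genes of blood cells in general was 1524 FPKM, below the 2058 to 2510 of the other 5 libraries. A set of 8 B-lineage markers, among them Cd79a, Igll1 and Pax5, summed to 880, 1418 and 653 FPKM at 96 h and to 1314, 1728 and 1783 FPKM at 144 h. Each of these sums overlapped between the times. Their ratios of 144 h to 96 h were 0.719 for stroma, 1.08 for blood cells and 1.64 for B-lineage markers, with exact two-sided permutation p = 0.4, 0.8 and 0.2. Adjusted over the 8 sums tested, these exact permutation p were 0.8, 1 and 0.533, and 3 libraries against 3 cannot go below 0.1. In bulk RNA, fewer cells of a type and less RNA per cell cannot be told apart.

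**Figure D1:**
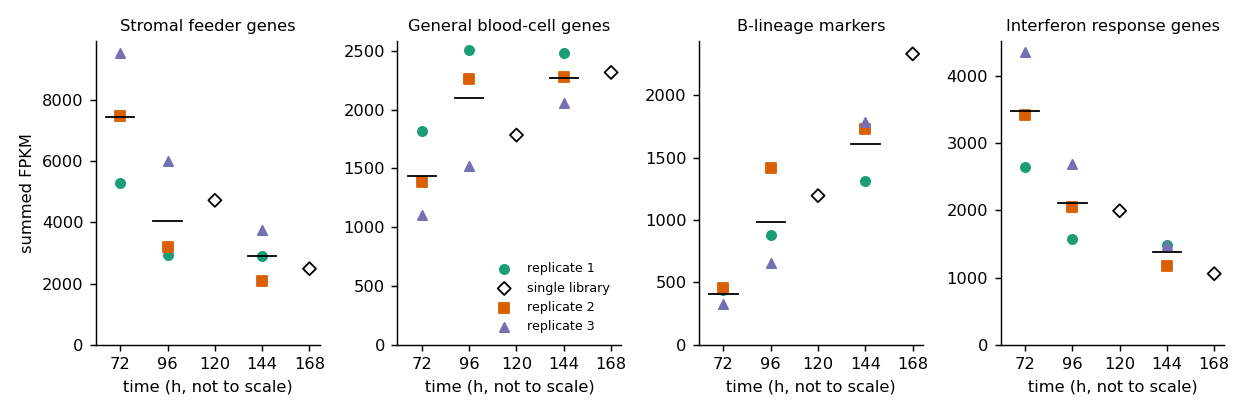
Summed FPKM (y axes, linear, from 0) of 4 gene lists against time in h (x axis, not to scale), with 1 symbol per library, a bar for the mean of 3 libraries and open diamonds for the single libraries at 120 h and 168 h. Replicate 3 at 96 h has the highest stromal sum of the 96 h and 144 h libraries, 6020, and the lowest blood-cell sum, 1524.

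Across 13907 genes tested on log2(FPKM + 1), 2 genes (0.0144%) rose from 96 h to 144 h and 0 fell at an adjusted p under 0.05 (limma, Benjamini-Hochberg). At an unadjusted p under 0.05 there were 645 genes (4.64%), of which 240 (1.73%) were higher and 405 (2.91%) were lower at 144 h. That split was 339 higher and 319 lower after quantile normalization, and 315 and 312 after scaling by the median ratio. The 3 libraries at 144 h lay wholly above those at 96 h for 371 genes (2.67%) and wholly below for 620 (4.46%). The median log2 change of all tested genes was -0.03, and the median half-width of its 95% interval was 0.54. For 10426 genes (75.0%) the whole interval lay within a 2-fold change on this scale, which understates the change of genes with low FPKM.

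C1ql1, which encodes a secreted protein of the C1q family, rose by 1.51 ± 0.22 (log2 change ± SE, adjusted p = 0.00143 in limma). It was listed at 0, 0 and 0.774 FPKM in the 96 h libraries and at 1.13, 4.70 and 2.36 FPKM in the 144 h libraries. All 3 libraries at 144 h were above all 3 at 96 h. The single libraries did not continue that order, with 0 FPKM at 120 h and 0.753 FPKM at 168 h. Slc5a9, a sugar transporter of the sodium-glucose family, rose by 0.87 ± 0.16 (adjusted p = 0.0481 in limma). Its values were 2.04, 1.08 and 1.36 FPKM at 96 h and 3.49, 2.69 and 4.54 FPKM at 144 h, again with no overlap, and 2.88 FPKM at 120 h and 7.36 FPKM at 168 h. Both genes are low beside the pre-B receptor genes described below, whose FPKM are far higher. C1ql1 reached 1 FPKM in the 3 libraries at 144 h and in 0 of the other 39 fitted, so that it passed the filter on low values only through the group where it is high, and it was listed at 0 in 37 of the 42 libraries. Slc5a9 reached 1 FPKM in these 6 libraries and in none of the 36 at other times, of which 27 were listed at 0. The SE of C1ql1 was 0.22 with the spread taken from the 42 libraries and 0.43 with the spread of the 6 alone, and those of Slc5a9 were 0.16 and 0.24. The call of C1ql1 held in 15 of the 20 alternative analyses that tested it, and that of Slc5a9 in 7 of 20. Both held without replicate 1 at 96 h or replicate 2 at 144 h, and that of Slc5a9 was lost without each of the other 4 libraries in turn. The count of called genes was 7 without replicate 1, 6 without replicate 2 and 1 without replicate 3 at 144 h. With only the 6 libraries fitted, 0 genes were called (159 higher and 319 lower at an unadjusted p under 0.05), and C1ql1 and Slc5a9 each had an adjusted p of 1 in limma. With the replicate number as a block in those 6 libraries, both calls were lost too (adjusted p = 0.870 for each in limma).

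Genes that came nearest to a call in each direction are given as values. Ets1, a transcription factor of lymphoid cells, stood at 36.5, 34.7 and 27.1 FPKM at 96 h and 40.9, 54.4 and 60.6 FPKM at 144 h, with a log2 change of 0.64 ± 0.15 (adjusted p = 0.233). Without replicate 1 at 144 h, the adjusted p of Ets1 was 0.0289. Snn (stannin) had a log2 difference of 0.71 ± 0.17, Clgn, a chaperone of the endoplasmic reticulum, of 0.95 ± 0.23, and Thrb, a thyroid hormone receptor, of 0.91 ± 0.23, none of them called. Tmem90a, Nptxr and the histone gene Hist1h2an had log2 changes of 0.98 ± 0.23, 1.74 ± 0.41 and 1.21 ± 0.30, also not called, and with a pseudocount of 0.1 in place of 1 Nptxr was the only gene called (adjusted p = 0.00519 in limma). Reads of Hist1h2an may be shared with its near-identical copies. The gene 1700024F13Rik was listed at 0 in all 3 libraries at 96 h and at 1.69, 1.51 and 1.77 FPKM at 144 h. All of these were higher in each 144 h library than in any at 96 h.

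On the lower side, Gzme, a granzyme of cytotoxic lymphocytes, stood at 11.2, 11.6 and 10.7 FPKM at 96 h and 3.82, 1.95 and 1.14 FPKM at 144 h. Its log2 change was -1.96 ± 0.45 (adjusted p = 0.233), and the groups did not overlap. Gm5741 was at 6.75, 5.11 and 6.42 FPKM at 96 h and 3.12, 0 and 0 FPKM at 144 h, also without overlap. Tmsb15a was listed at 0 in all libraries at 144 h and at 8.58, 6.49 and 0 FPKM at 96 h, a log2 change of -2.05 ± 0.46 that was not called. Without replicate 3 at 96 h, the library with 0, it was called lower at -3.08 ± 0.32 (adjusted p = 1.01e-06 in limma), and again without replicate 3 at both times (adjusted p = 1.5e-05). Sh2d1b1, an adaptor of natural killer cell receptors, was at 11.04, 7.83 and 9.18 FPKM at 96 h and 7.97, 1.71 and 2.34 FPKM at 144 h, so that replicate 1 at 144 h overlapped the 96 h libraries. Without that library Sh2d1b1 and Gm5741 were both called lower (adjusted p = 0.00616 and 0.00400 in limma). Of the rest of the 10, Tinagl1, a matrix protein, had a log2 change of -1.55 ± 0.36, Gm5886 of -2.18 ± 0.55, Lsm14b of -0.59 ± 0.15, Slc1a3, a glutamate transporter, of -1.28 ± 0.33, Enpp1, an ectonucleotidase, of -1.23 ± 0.33 and Gria3, a glutamate receptor subunit, of -0.73 ± 0.20. None was called, and the libraries of these 6 genes did not overlap between the times.

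**Figure D2:**
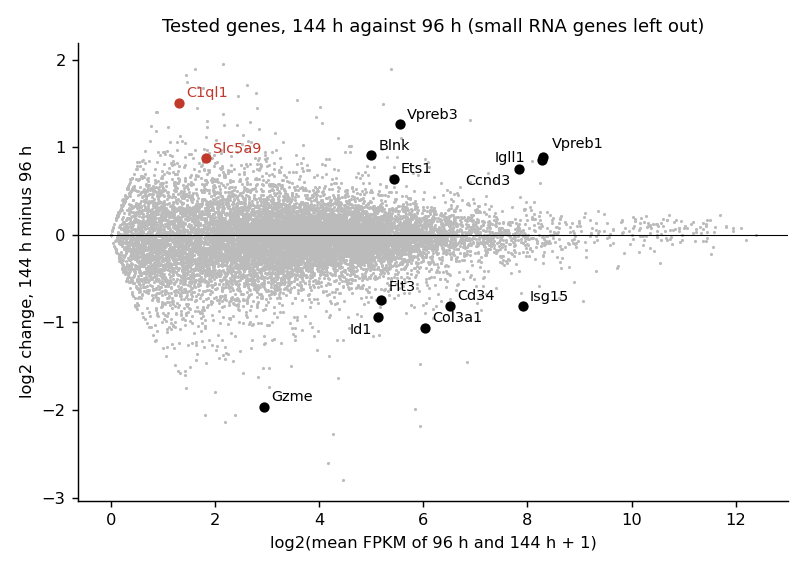
Log2 change from 96 h to 144 h (y axis) against log2 of the mean FPKM of the 2 time points plus 1 (x axis), 1 point per tested gene, without small RNA genes. The 2 called genes, C1ql1 and Slc5a9, are in red and lie at low FPKM; black points are genes named in the text that were not called.

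The replicate numbers at these times coincide with 3 series of the library codes in the labels, each with 1 library at 96 h and 1 at 144 h. The single libraries at 120 h and 168 h are labelled replicate 1, but their codes lie in the series of replicate 3 at 96 h and 144 h. Whether they are separate from that replicate is not stated. With the code series as a term in the model, 7 genes were called, 2 higher and 5 lower. These were C1ql1, Slc5a9, Gzme, Gm5886, Cd34, the growth factor gene Gas6 and the Wnt inhibitor gene Wif1. The last 2 were named because that model called them. That model took its spread from the 42 libraries. With the replicate number as a block in the 6 libraries alone 0 genes were called, and each of these named genes that was followed there (C1ql1, Slc5a9, Gzme, Gm5886 and Cd34) had an adjusted p of 0.870 in limma, the smallest of any gene.

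Subunits of the pre-B receptor had higher means at 144 h than at 96 h, and none passed the test. Igll1 (lambda5) stood at 219, 333 and 134 FPKM at 96 h and 357, 441 and 371 FPKM at 144 h, and the single libraries gave 240.0 FPKM at 120 h and 499 FPKM at 168 h. The means were 229 ± 99.7 (SD, n = 3) and 389.7 ± 45.4 FPKM (SD, n = 3). The groups did not overlap, but replicates at 96 h differed by more than 2-fold. It had a log2 difference of 0.85 ± 0.59, with a 95% interval of -0.35 to 2.06 (adjusted p = 1.00). That SE and interval take their spread from the 42 libraries. With only the 6 libraries fitted the SE of Igll1 was 0.34, and with the replicate block in those 6 it was 0.25. In the fit of the 6 alone the SE was 0.35 for Vpreb1 and 0.23 for Cd79a, also below those of the main fit. Neither of these fits called any gene. Vpreb1, the other surrogate light-chain subunit, stood at 164, 370.1 and 159 FPKM at 96 h and 348, 411 and 434 FPKM at 144 h, with replicate 2 at 96 h above replicate 1 at 144 h. Its log2 change was 0.89 ± 0.53, and that of its close copy Vpreb2, with which it may share reads, was 0.85 ± 0.60. Vpreb3, a related gene of B-cell precursors, had the largest change of the list, 1.26 ± 0.58 (unadjusted p = 0.0368 in limma), from 12.8, 43.5 and 24.3 FPKM to 32.5, 63.3 and 99.0 FPKM with an overlap.

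Among the signalling subunits, Cd79a (Ig-alpha) stood at 125, 159 and 103 FPKM at 96 h and 151, 214 and 229.5 FPKM at 144 h. Replicate 1 at 144 h lay within the range of the 96 h libraries, and the log2 change was 0.62 ± 0.45. Cd79b (Ig-beta) had a log2 difference of 0.51 ± 0.45. Blnk, the adaptor downstream of the receptor, stood at 28.7, 23.4 and 13.2 FPKM at 96 h and 48.4, 37.3 and 35.1 FPKM at 144 h, without overlap, with a log2 change of 0.91 ± 0.41 (unadjusted p = 0.0342, adjusted p = 1.00 in limma). The kinases Syk, Btk and Lyn had a log2 difference of 0.32 ± 0.42, -0.10 ± 0.32 and -0.05 ± 0.36, none of them called.

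Over the 16 tested genes of the pre-B and B-cell receptor list, 0 were called in either direction, beside 0.0144% of all genes. Of the 16, 13 were higher at 144 h, beside 43.3% of all genes. An unadjusted p under 0.05 was reached by 3 (among them Vpreb3 and Blnk), and 3 did not overlap (among them Igll1 and Blnk), where 1.73% and 2.67% of all genes did so. The median log2 change was 0.51, against -0.03 over all tested genes, 0.41 without replicate 3 at 96 h, 0.21 without replicate 3 at both times and 0.39 with the stromal mean as a covariate. The B-lineage marker sum was lowest and the stromal sum highest in that library, and their part in these values was not tested. In the single library at 168 h, 8 of the 16 genes stood above all 6 libraries, beside 12.1% of all genes. The code of that single library lies in the series of replicate 3. Only Ralgps2 of the 17 genes was not tested.

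**Figure D3:**
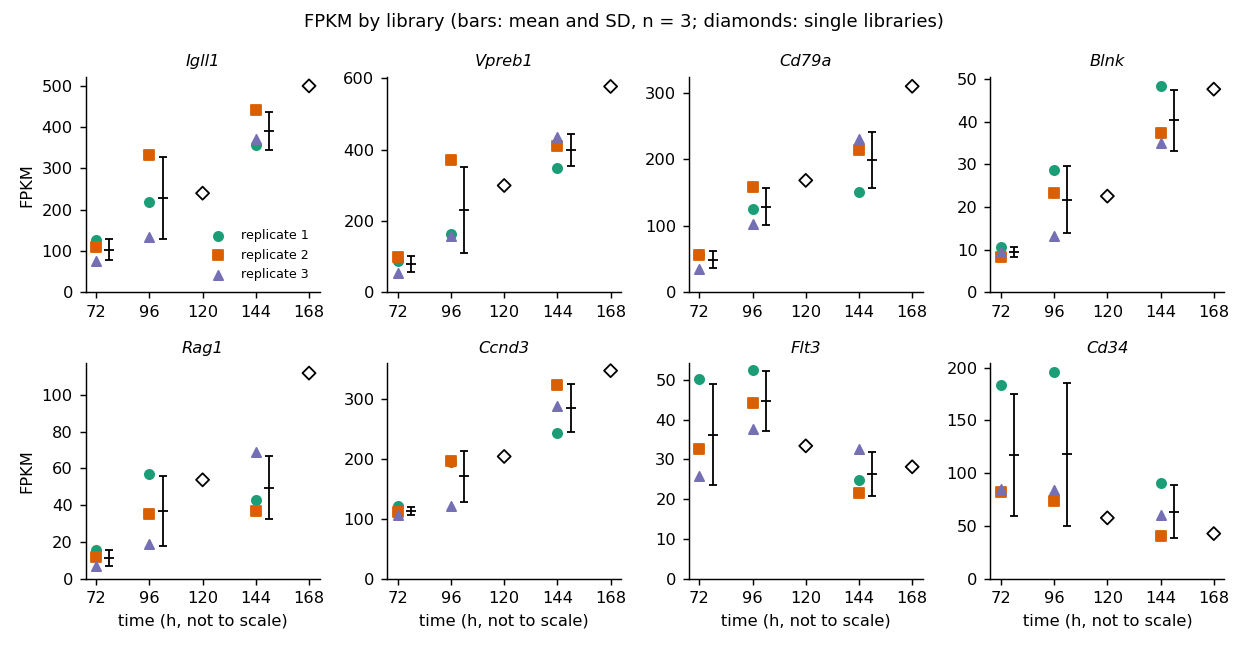
FPKM (y axes, linear, from 0) of 8 genes against time in h (x axes, not to scale), 1 symbol per library, with the mean and SD of 3 libraries at 72 h, 96 h and 144 h and open diamonds for single libraries. Igll1, Blnk, Ccnd3 and Flt3 do not overlap between 96 h and 144 h, and Vpreb1, Cd79a, Rag1 and Cd34 do.

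Transcription factors of the B lineage were not called. Ebf1, the factor that specifies the lineage, stood at 48.2, 61.3 and 39.9 FPKM at 96 h and 39.2, 67.2 and 86.1 FPKM at 144 h, a log2 change of 0.31 ± 0.33 with a 95% interval of -0.35 to 0.97. The lowest and the highest of these 6 values were both at 144 h, and the log2 change was -0.08 without replicate 3 at both times. Pax5, the factor that commits cells to the lineage, stood at 29.6, 30.7 and 18.5 FPKM at 96 h and 24.98, 52.3 and 24.5 FPKM at 144 h, with a log2 change of 0.30 ± 0.44 that was -0.05 without replicate 2 at 144 h. Foxo1 had a log2 difference of 0.41 ± 0.23, Irf4 of 0.50 ± 0.29, the coactivator Pou2af1 of 0.65 ± 0.45 and the lymphoid factor Ikzf1 of -0.42 ± 0.39, none of them called. Of 18 tested factors 14 were higher at 144 h, 2 at an unadjusted p under 0.05 (Ets1 and Tcf3), and only Ets1 did not overlap, where 1.73% of all genes were higher at that p and 2.67% did not overlap. Of all tested genes 43.3% were higher at 144 h. The median was 0.30, 0.15 without replicate 3 at 96 h and 0.13 without replicate 3 at both times. At 168 h the single library stood above all 6 for 8 of the 18 factors, among them Ebf1 at 106 FPKM and Ets1 at 78.2 FPKM, beside 12.1% of all genes. Ikzf3 was not tested.

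**Figure D4:**
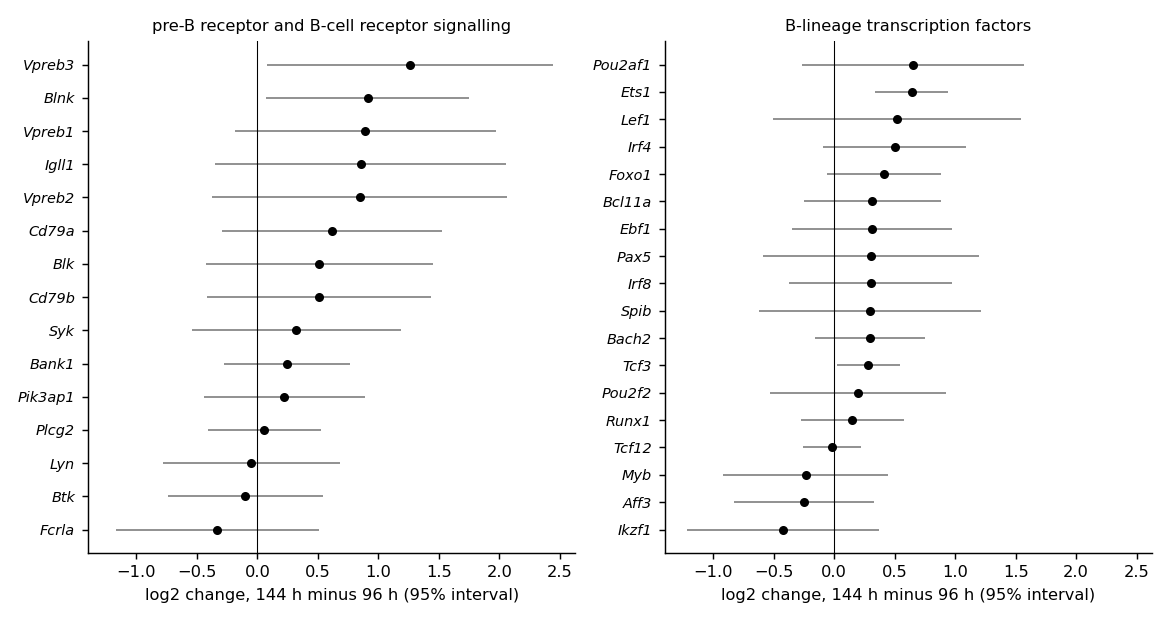
Log2 change from 96 h to 144 h (x axis) with its 95% interval from the limma fit, for the reported genes of 2 lists (y axis). The intervals of Vpreb3 and Blnk on the left and of Ets1 and Tcf3 on the right lie above 0 before adjustment for the number of genes.

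Of 7 genes of E proteins and their Id inhibitors none was called. Tcf3, which encodes E2A, stood at 67.7, 88.5 and 81.5 FPKM at 96 h and 84.9, 116 and 89.6 FPKM at 144 h, a log2 change of 0.28 ± 0.13 that was not called, and Tcf12 (HEB) and Tcf4 had a log2 difference of -0.02 ± 0.12 and 0.07 ± 0.19. Id3 reads cannot separate the cell's own gene from the Id3 part of the fusion. Id3 stood at 39.6, 62.5 and 95.8 FPKM at 96 h and 46.6, 56.1 and 74.5 FPKM at 144 h, a log2 change of -0.09 ± 0.38 whose sign was the opposite in 4 alternatives. Id2 had a log2 difference of 0.29 ± 0.25, which was -0.10 without replicate 1 at 144 h. Id1, an inhibitor of E proteins, stood at 28.8, 35.4 and 75.3 FPKM at 96 h and 26.1, 19.8 and 19.7 FPKM at 144 h, all 144 h libraries below all at 96 h. Its log2 change was -0.94 ± 0.34 (unadjusted p = 0.00870, adjusted p = 0.846 in limma), and the highest value was in the 96 h library with the highest stromal sum. The part of that sum in the value was not tested. Id1 was picked out after its values were seen.

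The recombination genes that join antibody gene segments did not pass the test. Rag1, a subunit of the recombinase, stood at 56.9, 35.2 and 19.0 FPKM at 96 h and 42.7, 36.8 and 69.1 FPKM at 144 h, a log2 change of 0.49 ± 0.41 that was 0.09 without replicate 3 at 96 h and -0.17 without replicate 3 at both times. Rag2, the other subunit, had a log2 difference of 0.22 ± 0.40, and of -0.17 without that library. Dntt, which adds bases at the joints, stood at 1.36, 1.03 and 0.864 FPKM at 96 h and 2.31, 1.13 and 3.52 FPKM at 144 h, a log2 change of 0.61 ± 0.22 (unadjusted p = 0.00849, adjusted p = 0.838 in limma). In the single library at 168 h Dntt reached 7.98 FPKM and Rag1 112 FPKM, each above all 6 libraries. Of 14 recombination and end-joining genes 11 were higher at 144 h, where 43.3% of all genes were. Their median was 0.23, and 0.08 without replicate 3 at 96 h. The 14 held 0 called genes and 1 that was higher at an unadjusted p under 0.05 (Dntt), beside 1.73% of all genes.

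The list of the IL-7 receptor and STAT5 response had a median log2 change of 0.06, which was below 0 in 3 alternatives. Its largest change was that of Ccnd3, cyclin D3, a cell-cycle gene. Ccnd3 stood at 196, 197 and 122 FPKM at 96 h and 244, 323 and 288 FPKM at 144 h. The means were 171 ± 42.7 and 285 ± 39.7 FPKM (SD, n = 3). The groups did not overlap, and the log2 change was 0.75 ± 0.23 (unadjusted p = 0.00284, adjusted p = 0.697 in limma). Il7r, the receptor's own chain, stood at 42.6, 23.4 and 9.65 FPKM at 96 h and 42.4, 23.1 and 27.3 FPKM at 144 h, so that replicates 1 and 2 were close at both times and replicate 3 was higher at 144 h. Its log2 change was 0.46 ± 0.48, and -0.08 without replicate 3 at 96 h. The STAT5 target Cish had a log2 difference of 0.69 ± 0.37, Pim1 of -0.02 ± 0.35, Socs2 of -0.12 ± 0.29 and Bcl2 of -0.28 ± 0.43. None of 19 genes of this list was called, and Ccnd3 was the only one at an unadjusted p under 0.05, beside 1.73% of all genes higher. Myc, the growth regulator, stood at 63.4, 161 and 104 FPKM at 96 h and 78.7, 171 and 168 FPKM at 144 h, a log2 change of 0.36 ± 0.27.

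Of 25 DNA replication genes 23 were higher at 144 h, beside 43.3% of all genes, with a median of 0.14. Without replicate 2 at 144 h the median was just below 0, at -0.0016, and it was 0.02 with the stromal mean as a covariate. None was called, 5 reached an unadjusted p under 0.05 (Lig1, Pold1, Gins2, Rfc3 and Gins1), and 2 did not overlap, beside 1.73% and 2.67% of all genes. Gins1, a subunit of the replicative helicase, stood at 17.3, 17.3 and 29.2 FPKM at 96 h and 35.0, 37.7 and 28.8 FPKM at 144 h, and Rfc3, a subunit of the clamp loader, at 27.7, 25.4 and 30.3 FPKM at 96 h and 36.8, 51.9 and 38.2 FPKM at 144 h. The clamp Pcna had a log2 difference of 0.05 ± 0.18 and Mcm2 of 0.06 ± 0.19. Mki67, which marks dividing cells, stood at 92.0, 73.7 and 67.3 FPKM at 96 h and 83.0, 101 and 92.0 FPKM at 144 h, a log2 change of 0.25 ± 0.17, and the 22 mitosis genes had a median of 0.05 that was below 0 with blood-cell scaling, with the stromal covariate and without replicate 2 at 144 h. In the 168 h library 9 of the 22 mitosis genes stood above all 6 libraries, and 2 of the 25 replication genes did, where 12.1% of all genes did so.

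Of the progenitor genes, none was called. Flt3, the receptor for Flt-3L, stood at 52.6, 44.2 and 37.6 FPKM at 96 h and 24.9, 21.7 and 32.6 FPKM at 144 h, with all 144 h libraries below those at 96 h and a log2 change of -0.75 ± 0.34 (unadjusted p = 0.0356 in limma). Cd34 stood at 196, 73.5 and 84.0 FPKM at 96 h and 90.6, 40.3 and 60.1 FPKM at 144 h, lower at 144 h in each code series, and the groups overlapped. Its log2 change was -0.81 ± 0.36 (adjusted p = 1.00), and the adjusted p was 0.032 with the code series in the model and 0.870 with the replicate block in the 6 libraries. Kit, the receptor for SCF, stood at 29.7, 12.8 and 10.6 FPKM at 96 h and 18.6, 16.6 and 19.7 FPKM at 144 h, a log2 change of 0.18 ± 0.37 that was -0.10 without replicate 3 at 96 h. The stem-cell factor Meis1 had a log2 difference of -0.72 ± 0.37, Hoxa9 of -0.13 ± 0.44, Mecom of -0.26 ± 0.84 and Erg of 1.02 ± 0.72. Of 16 tested genes 11 were lower at 144 h, where 7722 of all 13907 were. The median was -0.15, and -0.26 without replicate 2 at 96 h. Hlf and Lin28b were not tested.

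Of 17 tested surface markers that follow B-cell stages, 8 were higher and 9 lower at 144 h, with a median of -0.11 that was above 0 in 4 alternatives. None was called, and 1 did not overlap in each direction, beside 2.67% of all genes higher and 4.46% lower. The lower one was Fcer2a (CD23), a marker of mature B cells, at 4.18, 4.21 and 5.02 FPKM at 96 h and 2.41, 4.09 and 2.92 FPKM at 144 h and a log2 change of -0.42 ± 0.35. The higher one was Bst1 (CD157), found on early B precursors, which had the largest log2 change of the list. It stood at 13.1, 6.62 and 4.16 FPKM at 96 h and 18.6, 14.8 and 28.5 FPKM at 144 h, without overlap, and at 44.5 FPKM at 168 h. The change of Bst1 was 1.35 ± 0.36 on the log2 scale (unadjusted p = 0.000748, adjusted p = 0.490 in limma), and both were picked out after their values were seen. Cd24a had a log2 difference of 0.04 ± 0.20, Cd93 of -0.23 ± 0.23, Spn (CD43) of 0.16 ± 0.25 and Il2ra (CD25) of 0.39 ± 0.35. Ms4a1, Cr2 and Faim3 were not tested.

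Interferon response genes were lower at 144 h in all 18 cases by their fitted change, and none was called. Their median log2 change was -0.61, and 1 gene was lower at an unadjusted p under 0.05 (Ddx58), beside 2.91% of all genes. The libraries of 6 of the 18 did not overlap, where 4.46% of all genes did so. Isg15, a ubiquitin-like protein, stood at 209, 323 and 393 FPKM at 96 h and 197, 145 and 169.5 FPKM at 144 h, a log2 change of -0.82 ± 0.56. Usp18, which takes Isg15 off its targets, had a log2 difference of -0.75 ± 0.47, Mx1 of -0.79 ± 0.62 and Irf7 of -0.59 ± 0.49. The 18 genes summed to 1576, 2046 and 2690 FPKM at 96 h and to 1478, 1177 and 1490 FPKM at 144 h (exact two-sided permutation p = 0.1, the smallest that 3 against 3 allow, and 0.533 adjusted over 8 sums). The 168 h library was below all 6 for 9 of the 18, beside 12.6% of all genes. The median was -0.43 without replicate 3 at 96 h and -0.42 with the stromal mean as a covariate.

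Stromal genes had a median of -0.41, with 21 of 25 tested genes lower at 144 h, where 7722 of all 13907 were. None was called, and 2 were lower at an unadjusted p under 0.05, beside 2.91% of all genes. These were Col3a1, a fibrillar collagen, at 79.4, 66.7 and 106 FPKM at 96 h and 34.5, 22.6 and 76.1 FPKM at 144 h, and Sparc, a matrix protein, at 364, 374 and 738 FPKM at 96 h and 277, 244 and 328 FPKM at 144 h. Cxcl12, the chemokine that holds B precursors near stroma, stood at 529.7, 605 and 876 FPKM at 96 h and 429.8, 261 and 522 FPKM at 144 h, without overlap, a log2 change of -0.75 ± 0.49. Without replicate 3 at 96 h the median of the list was -0.10. The stromal markers Lum and Dcn were listed at 0 in all 6 libraries and were not tested. Chemokines and their receptors had a median of -0.34, with 13 of 15 lower at 144 h and 0 called. At an unadjusted p under 0.05, 1 was lower (Cxcl5), beside 2.91% of all genes. That median was -0.11 without replicate 1 at 96 h, -0.28 without replicate 3 at 96 h and -0.18 with the stromal covariate. The part of the stromal sum in this list and in the interferon genes was not tested beyond the values given.

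Markers of other blood cells were low or did not pass the test. The T-lineage markers Cd3e, Cd4, Cd8a, Bcl11b and Notch3 were too low to be tested, and the 16 T-lineage genes summed to 345, 170 and 91.7 FPKM at 96 h and to 224, 137 and 199 FPKM at 144 h. The erythroid markers Gata1, Klf1, Epor, Alas2 and Slc4a1 were also not tested, with Cd3e, Cd4 and Slc4a1 listed at 0 in all 6 libraries, and the haemoglobin gene Hbb-b1 stood at 51.2, 0.0157 and 40.9 FPKM at 96 h and 18.1, 0.0122 and 0.0143 FPKM at 144 h. The natural killer and innate lymphoid genes summed to 122, 64.0 and 47.1 FPKM at 96 h and to 115, 45.6 and 49.6 FPKM at 144 h. Myeloid genes summed to 347, 340 and 309 FPKM at 96 h and to 609, 169 and 303 FPKM at 144 h. Replicate 1 at 144 h stood apart there, with the lysozyme gene Lyz2 at 266 FPKM, against 25.8 and 44.3 FPKM in replicates 2 and 3. Cebpa, a myeloid factor picked out after its values were seen, stood at 7.66, 14.2 and 12.9 FPKM at 96 h and 5.63, 6.03 and 6.40 FPKM at 144 h, without overlap. Of 15 tested myeloid genes 2 lay wholly lower and 0 wholly higher at 144 h, and of 6 tested erythroid genes 1 and 0. Of all genes 4.46% lay wholly lower and 2.67% wholly higher. The T-lineage and natural killer lists held 0 such genes in either direction. The erythroid sums overlapped between the times. The ratios of 144 h to 96 h were 0.925 for T-lineage, 0.904 for natural killer, 1.09 for myeloid and 0.272 for erythroid genes, with exact two-sided permutation p = 0.9, 0.6, 1 and 0.2 and 1, 0.96, 1 and 0.533 adjusted over the 8 sums.

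**Figure D5:**
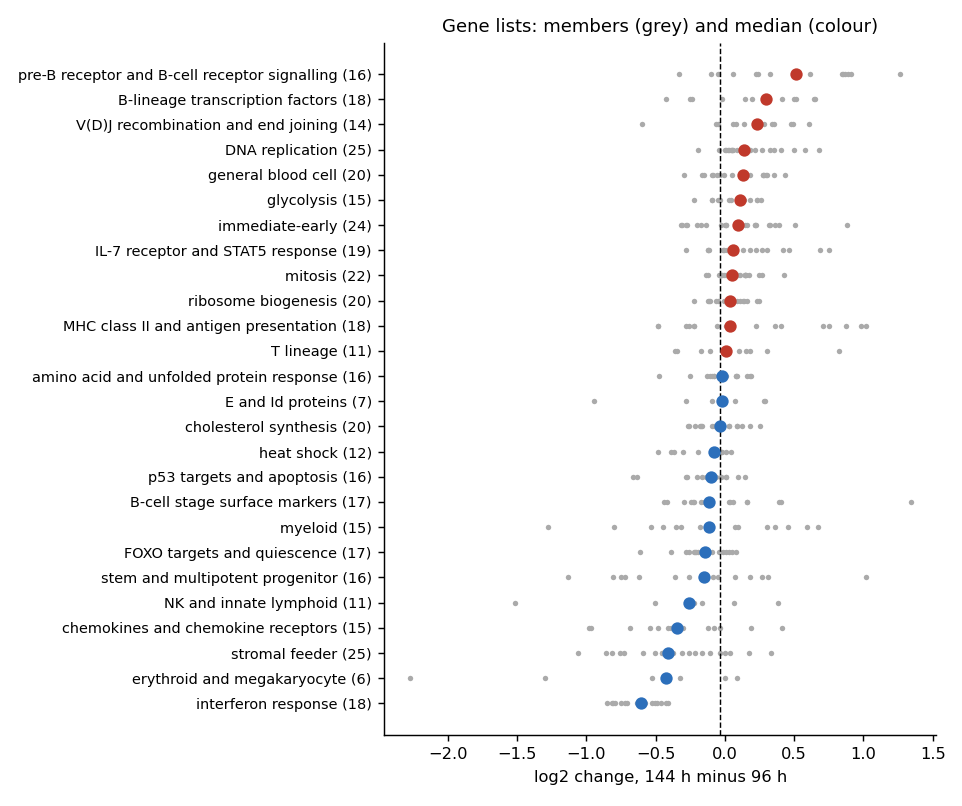
Log2 change from 96 h to 144 h (x axis) of the tested members of 26 gene lists (grey points, the number in brackets) and the list's median (red above 0, blue below 0). The dashed line is the median of all tested genes, -0.03; the pre-B and B-cell receptor list has the highest median, 0.51, and the interferon response list the lowest, -0.61.

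The step was then set against an earlier one, from 48 h to 72 h, which shares no library with it and is shorter. The difference between the steps was called for 0 genes (0%, limma), with 770 (5.54%) at an unadjusted p under 0.05, 246 higher and 524 lower, and the smallest adjusted p was 0.313. Igll1 had a difference of -0.87 ± 0.84 on the log2 scale, Vpreb1 of -0.97 ± 0.75 and Pax5 of -1.64 ± 0.62. A negative value means that the log2 change from 96 h to 144 h was below that from 48 h to 72 h, and none of these 3 passed the test. Flt3 had -1.50 ± 0.48 and Ccnd3 -0.01 ± 0.33. Leaving out 1 library gave 0 to 3 called genes, the 3 without replicate 2 at 144 h. With the code series in the model 9 genes were called, 1 higher and 8 lower, Cd34 among the lower.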

How the data were processed

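The table deposited by the authors holds 1 FPKM value per gene and library for 23234 genes. TopHat2 2.1.0, Cufflinks 2.1.1 and the mm9 build are named in the submitters' processing notes. The word corrected stands in the file's name, and its meaning is not given in the sources used here. A value of 0 is called listed at 0. No coordinates on mm9 were used. Promoters came from RefSeq's table for GRCm38.p6, matched by symbol.

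Values were taken as log2(FPKM + 1). The 14 time points with replicates gave 42 libraries, and the 13907 genes that reached 1 FPKM in 3 or more of these were tested. A linear model in which each time point has its own mean was fitted to the 42 libraries with limma 3.58.1 in R 4.3.3 (eBayes with a variance trend), so that the spread came from all of them, and the contrast used 3 libraries at each end. The p-values were adjusted by Benjamini-Hochberg over all tested genes and called under 0.05. The difference from the 48 h to 72 h step came from the same fit. Errors of log2 changes are SE, and intervals are 95% intervals of the model. The scripts were tested on simulated data. Single libraries were not fitted. Some genes of the lists are not reported here.

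The members, the 26 lists and the tests were chosen with earlier results of these data known. The lists were described by counts and medians. Named genes were the called genes, since none was called lower, the 10 with the largest test statistic in each direction (small RNA genes left out), and a set of 21 genes of B-cell development; other list members were picked after their values were seen. Alternatives were other scalings, filters and pseudocounts, blocks by replicate number or code series, a stromal covariate and leaving out libraries.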

Additional observations from a re-analysis of the deposited data

How the results depend on the processing

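Counts of called genes from 96 h to 144 h were small throughout and changed with most settings. The count was 0 with only the 6 libraries, with a mean of at least 5 FPKM, with blood-cell scaling and with a 2-fold minimum. It was 1 (1 higher) with pseudocounts of 0.1 (Nptxr, with both other calls lost) and 0.5 (C1ql1), with the filter on the 6 libraries and with the stromal covariate. Without a filter it was 6 (5 higher, 1 lower), and with the code series in the model 7 (2 higher, 5 lower). It stayed at 2 with quantile normalization, median-ratio scaling and no variance trend. Leaving out 1 library gave 1 to 7 called genes, 1 to 6 higher and 0 to 2 lower (1 higher and 1 lower without replicate 2 or replicate 3 at 96 h), with 7 without replicate 1 at 144 h, 6 without replicate 2 at 144 h and 1 without replicate 3 at 144 h. Without replicate 3 at both times it was 3 (1 higher, 2 lower), with C1ql1 among them. For the difference between the steps the count was 9 with the code series in the model and 0 to 3 with 1 library left out, and 0 in the other settings run; the filter on the 6 libraries was not run for it. With the replicate number as a block, 0 genes were called for the step (231 higher and 445 lower at an unadjusted p under 0.05) and 0 for the difference. Deviations of same-numbered libraries correlated at 0.115, 0.0953 and 0.0733 across genes, each library best with its own number, which is a hint from the data and not from the design, so the numbers were not taken as pairs. Blood-cell scaling moved the median of all genes from -0.03 to -0.11 for the step and from -0.06 to 0.55 for the difference. None of the 41 named genes changed sign with a call in any setting, and 33 kept their sign in all; of the 26 list medians 8 did so in 21 settings. FPKM carry no counts, so how far depth limits these results cannot be given. The half-width of the intervals, with the spread of the 42 libraries, is the measure of precision.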

Other observations

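Of 18 tested genes of antigen presentation none was called, 11 were higher and 7 lower at 144 h. Their median log2 change was 0.03, and it was below 0 in 4 alternatives. The libraries did not overlap for 3 genes that were higher and 2 that were lower, beside 2.67% and 4.46% of all genes. The class II gene H2-Eb1 stood at 9.84, 22.8 and 14.9 FPKM at 96 h and 32.4, 28.2 and 33.6 FPKM at 144 h, without overlap, a log2 change of 1.02 ± 0.48 (unadjusted p = 0.0427 in limma). H2-Aa, which encodes a class II alpha chain, stood at 24.5, 31.1 and 16.8 FPKM at 96 h and 50.7, 55.8 and 37.0 FPKM at 144 h, also without overlap, and the invariant chain gene Cd74 at 104, 150.1 and 88.0 FPKM at 96 h and 253, 175 and 136 FPKM at 144 h, with an overlap. The class I genes H2-K1 and H2-D1 had a log2 difference of 0.01 ± 0.31 and 0.05 ± 0.36, and the peptide transporter genes Tap1 and Tap2 of -0.22 ± 0.35 and -0.28 ± 0.37. Reads of the class I and class II genes may be shared between close copies. Myeloid genes, some of which are also found in antigen-presenting cells, were highest in replicate 1 at 144 h, and their part in these values was not tested.

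Genes of basic metabolism and stress had medians near 0. The median log2 change was 0.11 over 15 glycolysis genes, 0.04 over 20 ribosome biogenesis genes, -0.04 over 20 cholesterol synthesis genes and -0.02 over 16 genes of the amino acid and unfolded protein response, and each of these changed sign in at least 1 alternative. None of their members was called or reached an unadjusted p under 0.05. FOXO target and quiescence genes had a median of -0.15, and of 0.03 without replicate 2 at 144 h. Of the 17, 13 were lower at 144 h, where 7722 of all 13907 tested genes were. Pik3ip1, an inhibitor of PI3 kinase, was the only one at an unadjusted p under 0.05, beside 2.91% of all genes lower. It stood at 35.4, 28.6 and 27.3 FPKM at 96 h and 14.8, 20.9 and 23.8 FPKM at 144 h. The immediate-early gene Atf3 stood at 1.91, 1.81 and 1.36 FPKM at 96 h and 3.32, 3.95 and 4.63 FPKM at 144 h, a log2 change of 0.88 ± 0.40 that was not called. Pik3ip1 and Atf3 were picked out after their values were seen.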
